A study of Macaca mulatta with 14 samples.

Results

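The core autophagy genes were examined in PBMC (peripheral blood mononuclear cells, a fraction that holds lymphocytes and monocytes) from aged male rhesus macaques on a control diet or on calorie restriction (CR). The set held 36 genes chosen by name, and each gene was read from the array probe sets whose only listed gene symbol was that name. A probe set is a group of short probes on the array that together report 1 transcript. Of the 36 genes, 29 had such a probe set in the annotation used, 51 probe sets in all, out of 52865 on the array. The genes without one were ATG14, WIPI1, ATG12, ATG4D, MAP1LC3A, BNIP3 and BNIP3L, and they were not analysed here. Each gene is given by its probe set with the highest mean log2 signal over the 14 arrays, and its other probe sets are compared further on. All 29 genes passed the filter on low signal, which kept the brighter 50% of probe sets by their mean over both diets.

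The control group was 7 males aged 24 to 27 years and the CR group 7 males aged 24 to 30 years, with 1 array per animal. The design text names both groups beside a period of 16 years, and it is assumed here that this was how long the CR group had been restricted. Ages are given only as these ranges, and the degree of restriction is not given in the sources used here. The question was how CR over this time relates to gene expression in blood cells.

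Macroautophagy encloses cell components in a double membrane, the autophagosome, which then fuses with a lysosome. Initiation runs through the ULK1 kinase complex, which mTORC1 inhibits when nutrients are plentiful and AMPK activates when energy is short. The Beclin 1 lipid kinase complex, membrane carriers and ubiquitin-like conjugation systems then build the membrane and attach LC3 and GABARAP proteins to it, and these bind cargo receptors. Much of this machinery is regulated by phosphorylation, lipidation and protein turnover, which a measurement of mRNA does not report. In PBMC the pathway is known for its part in lymphocyte survival and in monocyte differentiation.

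No autophagy gene separated the diets after correction for all probe sets tested, and most differences were small. The gene furthest towards passing was BECN1 (Beclin 1), at 1.24-fold in CR with a 95% interval of 1.03 to 1.48 (n = 7 and 7), and its second probe set was on the lower side. ULK1 was lower in CR in both of its probe sets and MAP1LC3B in all 3, without passing. Both ULK1 probe sets share a name but for the suffix, as do the brightest and second of MAP1LC3B, so they may not be independent readings. Without control 5 the difference of the brightest MAP1LC3B probe set was -0.013. Of the autophagy genes 20 were on the higher side in CR and 9 on the lower, with a median difference of 0.10 on the log2 scale. Of all 26383 tested probe sets 48.1% were on the higher side, with a median of -0.012. Of the 21 other tested probe sets of the autophagy genes 8 were on the higher side, with a median of -0.15. With the probe sets of each gene averaged, 16 genes were higher and 13 lower.

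By the limma test with Benjamini-Hochberg adjustment over all tested probe sets, 0 of 29 autophagy genes passed an adjusted p of 0.05, and their smallest adjusted p was 0.918. Of all tested probe sets 0% passed. At an unadjusted p under 0.05 stood 1 gene, where 5.12% of all tested probe sets did. It was higher (BECN1), where 2.29% of all tested probe sets were higher, and 0 were lower, where 2.82% were lower. A linear model without variance moderation also gave 0 genes at adjusted p and 1 at unadjusted p. In 0 of 29 genes were all CR values above, or all below, all control values, where 0.0303% of probe sets lay wholly above and 0.0531% wholly below. With 29 genes, counts of 1 and 0 are near these shares.

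**Figure D1:**
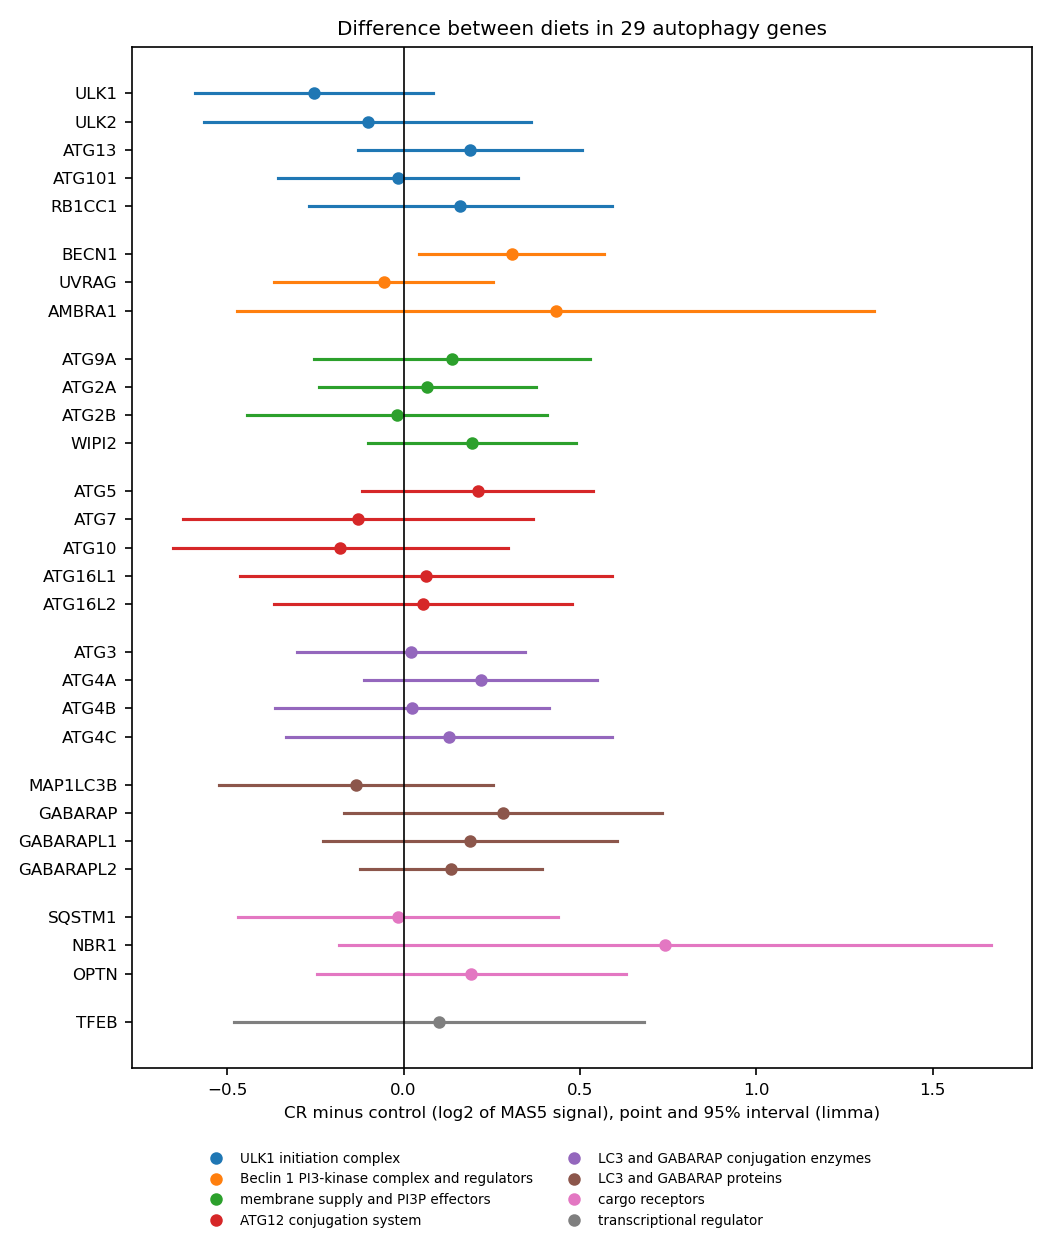
Difference between diets (CR minus control, log2 of MAS5 signal) for the 29 autophagy genes, grouped and coloured by role. Points are limma estimates and lines 95% intervals (n = 7 and 7). The interval of BECN1 lies above 0, those of the other genes span 0, and NBR1 and AMBRA1 have the widest.

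The intervals show what size of change these arrays leave room for. In 27 of 29 genes the 95% interval lay within 1 log2 unit of 0 on both sides, compared with 76.3% of all tested probe sets. The exceptions were AMBRA1 and NBR1. In 10 of 29 it lay within 0.5 log2 units, compared with 15.5% of all probe sets. These were ATG101, UVRAG, ATG2A, ATG2B, WIPI2, ATG16L2, ATG3, ATG4B, GABARAPL2 and SQSTM1. The median standard error (SE) of a difference was 0.20 among the autophagy genes and 0.25 over all probe sets. These comparisons were not matched for signal. Of the 29 genes, each read from its brightest probe set, 3 were between the 50 and 75 percentile of mean signal, where 13191 of all 26383 tested probe sets were.

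The split of the list between higher and lower varied with scaling, with more genes higher than lower each time. The deposited signals had already been scaled to the same trimmed mean on each array. After each array was centred on its median, 23 autophagy genes were higher and 6 lower, and after quantile normalization 19 were higher and 10 lower. Centring turned the sign of ATG101, ATG2B and SQSTM1, and quantile normalization that of ATG3. Among all probe sets in the brightest 10% of the array, from the 90 to the 100 percentile of mean signal, 54.2% were higher in CR. From the 75 to the 90 percentile 49.2% were, and from the 50 to the 75 percentile 45.02%. The autophagy genes in these 3 bands were higher in 10 of 12, 8 of 14 and 2 of 3, and the difference between bands was not tested.

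Facts of the whole series bear on these values. Control 1 had the lowest median correlation with other arrays (0.879, and 0.908 to 0.933 in the others). Its 3-prime to 5-prime log2 signal ratio, a measure of RNA integrity, was the highest for the EF1A control probes (5.38, and at most 4.31 elsewhere). It was also the highest for GAPDH (7.48, and at most 6.89), while for actin CR 2 was highest at 12.78. The lowest ratios on any array were 3.24 for EF1A, 5.07 for GAPDH and 8.10 for actin. All 14 arrays thus had much stronger 3-prime than 5-prime signal, and the reason was not tested. CR 6 and CR 7 had the lowest monocyte marker scores, -1.87 and -1.43. Controls lay between -0.55 and 0.88 and the remaining CR arrays between -0.42 and 1.02. A marker score is the mean log2 signal of a cell type's markers after centring each on its mean over 14 arrays. All 9 tested monocyte markers of 12 fixed had lower means in CR and all 9 NK and cytotoxic markers of 10 higher ones. All 6 tested neutrophil markers of 10 also had lower means in CR, with scores of -1.53 in CR 6 and -1.58 in CR 7, and all 5 tested B cell markers of 8 higher ones. Platelet scores were also lowest in CR 6 (-2.25) and CR 7 (-1.39). PBMC are a mixture, so fewer cells of a type and less RNA per cell cannot be told apart, and the part of cell makeup in the differences between diets was not tested beyond the values given below.

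The ULK1 complex starts the pathway. ULK1, its kinase, was at 9.69, 9.85 and 10.18 (lowest, median and highest log2 signal) in the 7 controls and at 9.16, 9.69 and 10.07 in the 7 CR animals. Only 1 CR animal lay above the control median and 4 lay below the lowest control, and the groups overlapped. The difference was -0.25 ± 0.16 (SE), or 0.839-fold with an interval of 0.664 to 1.06, and did not pass (adjusted p = 0.924, limma). The second probe set of ULK1 gave -0.38 ± 0.22, with 0 of 7 CR animals above the control median. The related kinase ULK2 differed by -0.10 ± 0.22. ATG13, the adaptor that links the kinase to the complex, was at 9.42 ± 0.20 (SD, n = 7) in controls and 9.61 ± 0.21 in CR. ATG101, which stabilises ATG13, differed by -0.015 ± 0.16, and the scaffold RB1CC1 (FIP200) by 0.16 ± 0.20. Without control 1 RB1CC1 was at 0.021, and ULK2 at -0.25 (-0.018 without control 3). The complex thus had 2 genes on the higher and 3 on the lower side, all within intervals that span 0.

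BECN1 is the scaffold of the lipid kinase complex that makes PI3P, the lipid that marks the growing membrane. Its log2 signal was 12.71, 12.98 and 13.25 (lowest, median and highest) in controls and 13.16, 13.23 and 13.54 in CR. All 7 CR animals lay above the control median and 2 above the highest control. The difference was 0.31 ± 0.12 (SE), which had an unadjusted p of 0.0241 and an adjusted p of 0.918 (limma). Without CR 4, the animal at 13.54, it was 0.26 and no longer under 0.05 before adjustment. UVRAG, an alternative partner of Beclin 1, differed by -0.057 ± 0.15. AMBRA1, which tethers and activates the complex, was at 6.43 ± 1.05 (SD) in controls and 6.86 ± 0.60 in CR. Its 95% interval ran from -0.47 to 1.33, one of the widest of the list, it was at 0.13 without control 5, and its signal was near the lowest tested mean of 6.45.

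The membrane carriers and PI3P readers differed little. ATG9A, the lipid scramblase carried by vesicles to the forming membrane, was at 9.01, 9.15 and 9.58 in controls (lowest, median, highest log2 signal) and at 8.72, 9.48 and 9.93 in CR. In 6 of 7 CR animals it was above the control median, while CR 4 lay below all controls, and the difference was 0.14 ± 0.19 (SE; 0.052 without CR 2). The lipid transfer proteins ATG2A and ATG2B differed by 0.068 ± 0.15 and -0.019 ± 0.20. WIPI2, which reads PI3P and recruits ATG16L1, was at 11.63, 11.77 and 12.05 in controls and 11.56, 12.05 and 12.31 in CR. Its difference was 0.19 ± 0.14, with 6 of 7 CR animals above the control median, 3 above the highest control, and CR 7 below the lowest. It did not pass (adjusted p = 0.924, limma). All 4 probe sets of WIPI2 were on the higher side, from 0.088 to 0.34. Without CR 6 and CR 7 the difference was 0.32.

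**Figure D2:**
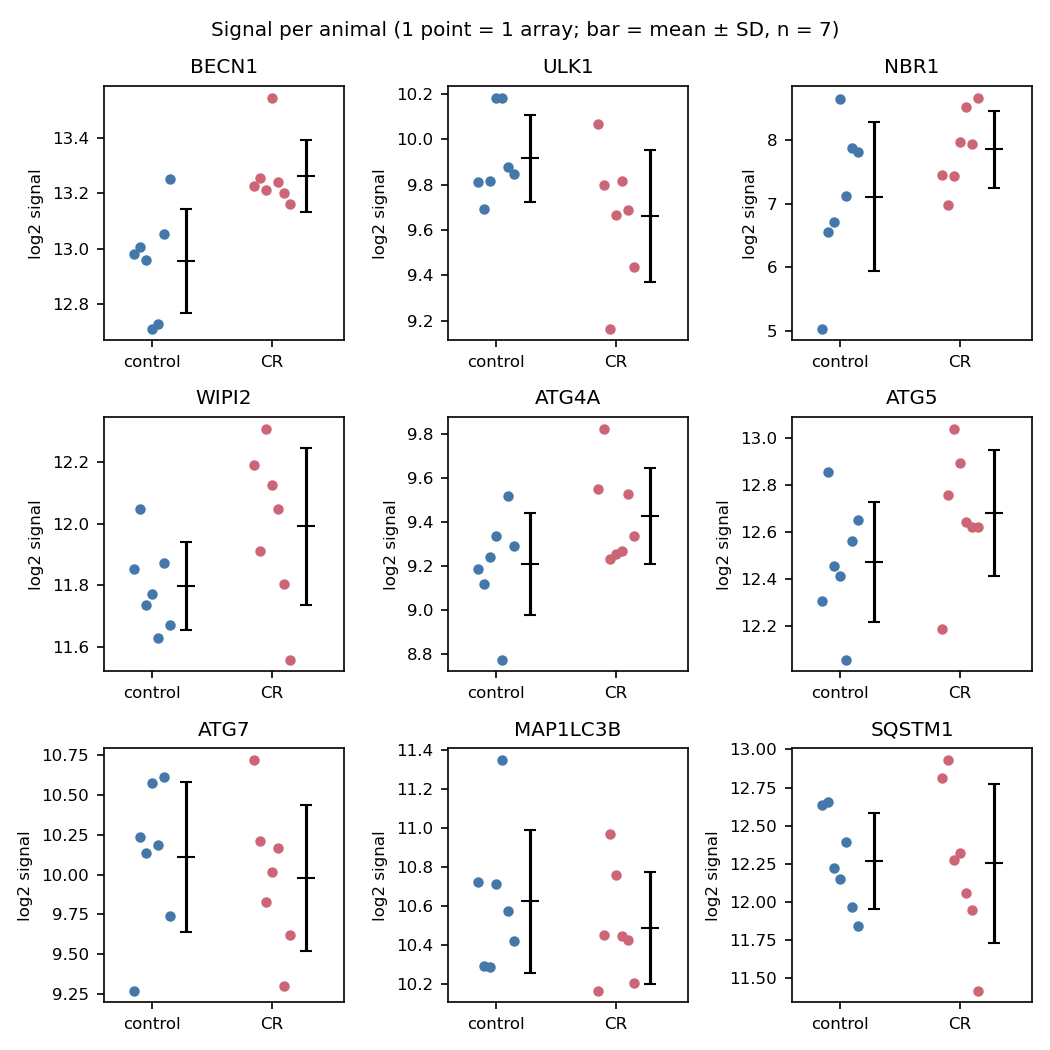
Log2 MAS5 signal of 9 autophagy genes, 1 point per animal, with the mean ± SD (n = 7) beside each diet. The diets overlap in all 9 genes, and the 7 CR points of BECN1 sit between 13.16 and 13.54.

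The ATG12 system joins ATG12 to ATG5, and the product works with ATG16L1 as the enzyme that places LC3 on membranes. ATG5 was at 12.06, 12.46 and 12.86 in controls (lowest, median, highest log2 signal) and at 12.19, 12.64 and 13.04 in CR, with 6 of 7 CR animals above the control median. Its difference was 0.21 ± 0.16 (SE; adjusted p = 0.924, limma). Its 2 other probe sets gave 0.084 ± 0.38 and -0.43 ± 0.28. ATG7, the activating enzyme of both conjugation systems, was at 9.27, 10.19 and 10.61 in controls and 9.30, 10.01 and 10.72 in CR. The groups covered nearly the same range and the difference was -0.13 ± 0.24 (-0.015 without CR 6). ATG10, the conjugating enzyme for ATG12, differed by -0.18 ± 0.22 (-0.082 without control 5), ATG16L1 by 0.065 ± 0.25 and its relative ATG16L2 by 0.055 ± 0.20. The second ATG16L1 probe set was at -0.53 ± 0.25, on the other side from the brighter one.

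ATG3 and the 3 measured ATG4 proteases were on the higher side by small amounts, and ATG3, ATG4B and ATG4C turned sign under some alternatives. ATG3, the conjugating enzyme for LC3, differed by 0.022 ± 0.15 (SE). ATG4A, a protease that trims LC3 and GABARAP proteins, was at 8.77, 9.24 and 9.52 in controls and 9.23, 9.34 and 9.82 in CR (lowest, median, highest log2 signal). In 6 of 7 CR animals it was above the control median and in 3 above the highest control. The difference of 0.22 ± 0.16 did not pass (adjusted p = 0.924, limma). The proteases ATG4B and ATG4C differed by 0.025 ± 0.19 and 0.13 ± 0.22, and the second probe set of each was on the lower side.

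LC3 and GABARAP proteins coat the autophagosome and bind cargo receptors. MAP1LC3B was at 10.29, 10.58 and 11.35 in controls (lowest, median, highest log2 signal) and 10.17, 10.45 and 10.97 in CR. Control 5, at 11.35, stood above the rest of its group, and 2 CR animals were below the lowest control. The difference was -0.13 ± 0.18 (SE), and the other probe sets gave -0.37 ± 0.22 and -0.34 ± 0.41. Without control 5 the difference was -0.013. The 3 GABARAP genes were on the other side. GABARAP differed by 0.28 ± 0.21, GABARAPL1 by 0.19 ± 0.20 and GABARAPL2 by 0.13 ± 0.12. Without control 1 GABARAP was at 0.14, without CR 4 GABARAPL1 at 0.046 and without control 5 GABARAPL2 at 0.077. GABARAPL1 was at 11.14, 11.31 and 11.80 in controls and 10.96, 11.65 and 12.44 in CR, with CR 4 highest and CR 1 and CR 2 below all controls. No test compared MAP1LC3B with the GABARAP genes.

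Cargo receptors carry ubiquitin-tagged material to the autophagosome. SQSTM1 (p62), itself degraded by autophagy as a protein, was at 11.84, 12.22 and 12.66 in controls (lowest, median, highest log2 signal) and 11.42, 12.28 and 12.93 in CR. The difference was -0.014 ± 0.22 (SE), a fold of 0.990 with a 95% interval of 0.723 to 1.36. The CR animals spread more widely, from CR 7 below all controls to CR 1 and CR 2 above them. NBR1 had the largest difference of the list, 0.74 ± 0.44, and did not pass (adjusted p = 0.920, limma). It was at 5.04, 7.12 and 8.64 in controls and 6.99, 7.93 and 8.66 in CR, and the lowest control was control 1. Without control 1 the difference was 0.40, and without control 4 it was 0.996 with an unadjusted p of 0.0287 and an adjusted p of 0.983 (0.704 to 0.999 over its alternatives, limma). OPTN (optineurin), a receptor for bacteria and mitochondria, differed by 0.19 ± 0.21 (0.10 without control 4).

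TFEB, the transcription factor that drives autophagy and lysosome genes, was at 8.20, 9.05 and 9.95 in controls (lowest, median, highest log2 signal) and 8.53, 9.004 and 9.89 in CR. The groups overlapped almost wholly, and the difference was 0.10 ± 0.28 (SE). Its 95% interval, -0.48 to 0.68, was wide against most of the list.

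**Figure D3:**
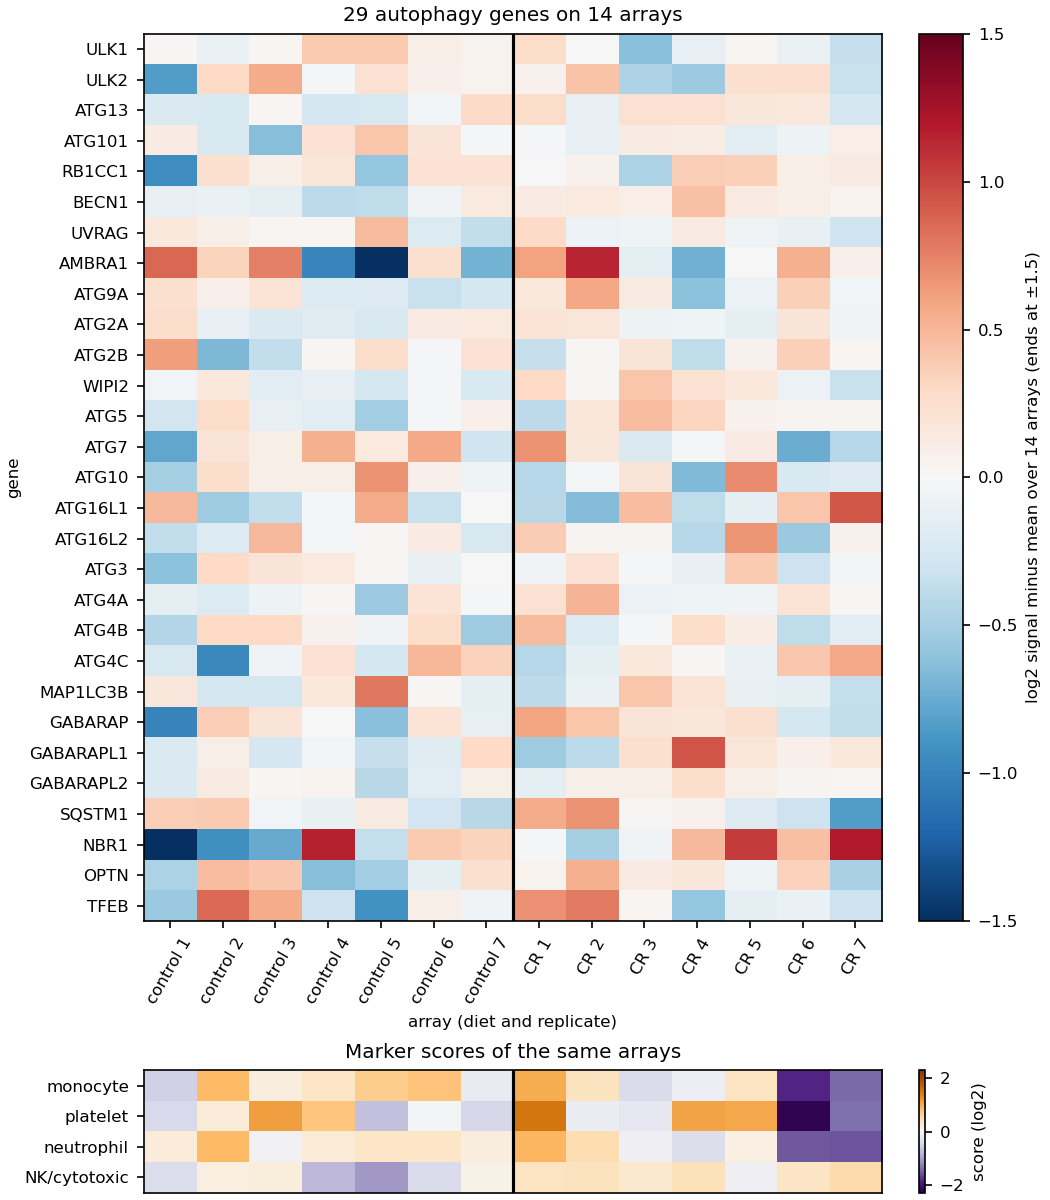
Log2 signal of 29 autophagy genes minus each gene's mean over 14 arrays (upper panel, colour scale ending at ±1.5), and marker scores of the same arrays (lower panel). Columns are animals, controls left of the black line. NBR1, GABARAP and RB1CC1 are low in control 1, NBR1 the most, and CR 6 and CR 7 have the lowest monocyte and platelet scores.

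The level of the list as a whole is given per animal by the median of its centred values. The median of the 29 centred values ran from -0.24 to 0.08 log2 units across controls and from -0.04 to 0.12 across CR animals. Control 5 (-0.24) and control 1 (-0.21) were the lowest arrays, and the remaining 12 lay between -0.04 and 0.12. The SD of a single gene within a diet had a median of 0.36 over the autophagy genes and 0.47 over all tested probe sets, not matched for signal. NBR1 (0.93) and AMBRA1 (0.86) varied most within a diet, and BECN1 (0.16) and GABARAPL2 (0.16) least.

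Probe sets of the same gene often differed in direction. Of the 29 genes, 14 had at least 2 tested probe sets, and in 8 of these all other probe sets had the sign of the brightest. In 6 genes, ATG13, BECN1, ATG5, ATG16L1, ATG4B and ATG4C, 1 of the others had the opposite sign. While 20 of 29 brightest probe sets were higher in CR, 8 of the 21 others were, with a median of -0.15. With all 50 tested probe sets the median was 0.06, and after averaging all tested probe sets of each gene 16 genes were higher and 13 lower. The brightest probe sets of ULK1, ATG7, ATG3 and MAP1LC3B have a name ending in _s_at, which Affymetrix uses where probes match more than 1 transcript, so those values can include related transcripts.

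Between the 2 brightest probe sets of a gene, ATG16L1 had a larger gap in its difference (0.60) than BECN1, and BECN1 had the smallest p. The 7 controls averaged 10.27 ± 0.25 (SD) on its second probe set and the 7 CR animals 10.06 ± 0.19. This was -0.21 ± 0.15 (SE) for CR minus control. The log2 ratio of the brighter to the other BECN1 probe set on the same array was 2.68 ± 0.27 (SD) in controls and 3.20 ± 0.11 in CR. All 7 CR animals had a ratio above the control median and 5 a ratio above the highest control. The shift of 0.51 had an exact permutation p of 0.00175 (two-sided, 3432 splits) and an adjusted p of 0.0245 over the 14 genes so tested, exact permutation test. This test was added after the values were seen. It compares the change of the 2 probe sets and cannot tell which of them changed. Without 1 array the shift stayed between 0.47 and 0.58. The adjusted p then ran from 0.00816 to 0.0734 (exact permutation), above 0.05 without CR 2, 3, 4, 5 or 7 in turn. In the other 13 genes the adjusted p was at least 0.749, also by the exact permutation test. Averaged over both probe sets, the difference of BECN1 was 0.050.

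**Figure D4:**
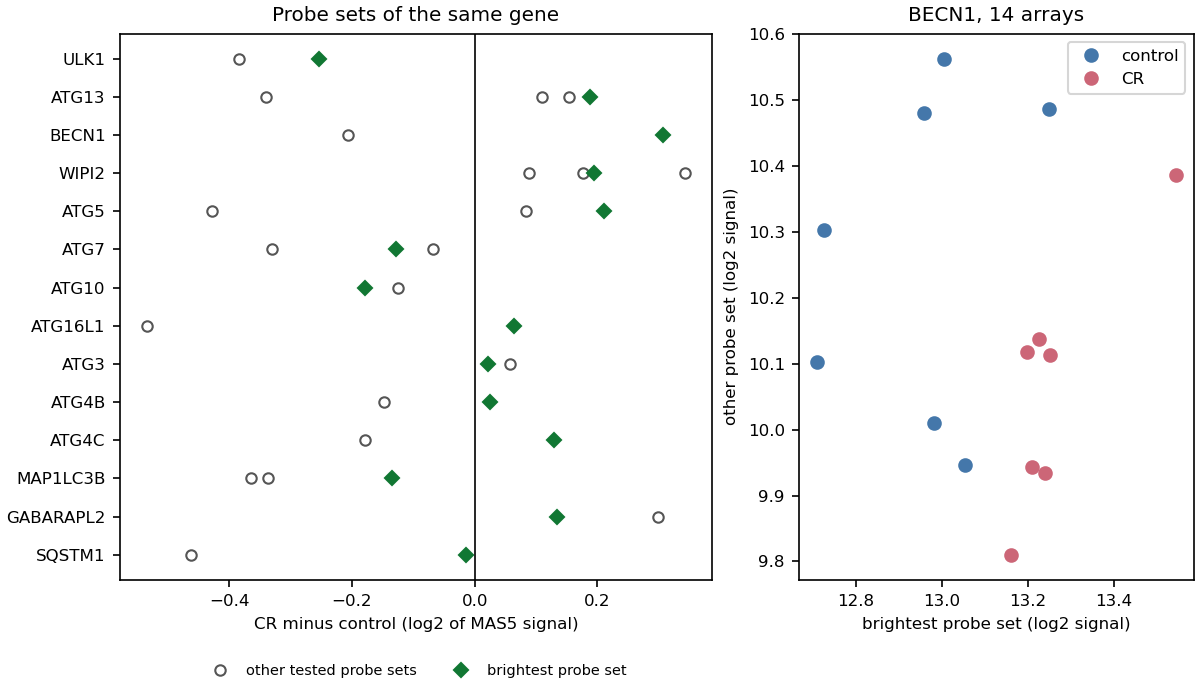
Left, CR minus control (log2 of MAS5 signal) for each tested probe set of the 14 genes with at least 2, with the brightest as a filled diamond. Right, the 2 BECN1 probe sets on 14 arrays, 1 point per animal; at a similar signal of the second probe set, CR points lie further right.

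ATG7 followed the monocyte markers of the same animals and, without passing, the platelet markers. Each gene was correlated with the monocyte, platelet and erythroid scores over 14 arrays after each diet's mean was subtracted. These scores differed between diets by -0.60, -0.12 and -0.14 (CR minus control). Correlations with the NK and cytotoxic, neutrophil and B cell scores, which differed by 0.63, -0.59 and 0.17, were not computed. The 3 scores used gave 87 pairs, all sharing arrays and scaling, and p-values were adjusted over the 87. By Pearson's r 1 of these pairs passed an adjusted p of 0.05, ATG7 with the monocyte score, and by Spearman's rho 2 did, this one and ATG4B with the platelet score. Pearson's r was 0.874 (p = 3e-05, adjusted p = 0.00261) and Spearman's rho 0.868 (p = 7e-05, adjusted p = 0.00609), by permutation within diets. Within the controls r was 0.831 and within the CR animals 0.971 (n = 7 each). ATG7 was lowest in control 1 (9.27), CR 6 (9.30) and CR 7 (9.62), the arrays with the lowest monocyte scores. Without CR 6 and CR 7 r was 0.865, with a permutation p of 0.00072 and an adjusted p of 0.0626. Of the 2 other ATG7 probe sets, examined after this result was seen, 1 gave r = 0.687 and rho = 0.744 (permutation p = 0.0041 and 0.0054). The adjusted permutation p was 0.00615 for r and 0.0081 for rho over the 3 probe sets. These 3 include the brightest, already seen to pass, which makes the adjustment milder. The other of these 2 probe sets gave r = 0.136 (rho = 0.0374, adjusted permutation p = 0.689 for r and 0.905 for rho). With the platelet score the brightest ATG7 probe set had r = 0.701 and rho = 0.653 (adjusted permutation p = 0.0779 and 0.131). Without CR 1 and CR 6 that r was 0.488. With the erythroid score r was 0.414 (adjusted permutation p = 0.435).

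By Pearson's r no other pair passed, and a selection of them is given here. GABARAP, ATG16L1 and ATG4B each had a sizeable r with more than 1 score. With the platelet score r was 0.657 for GABARAP, -0.61 for ATG2B and -0.68 for ATG16L1 (adjusted permutation p = 0.0774, 0.0951 and 0.130). ATG4B had r = 0.708 with the monocyte score and 0.626 with the erythroid score (adjusted permutation p = 0.0709 and 0.112). GABARAP had r = 0.715 and rho = 0.705 with the monocyte score (permutation p = 0.00175 and 0.0033, adjusted p = 0.0507 and 0.068), and r = 0.607 without CR 6 and CR 7. ATG16L1 ran the other way, with r = -0.71 and rho = -0.71 (permutation p = 0.0121 and 0.0112, adjusted p = 0.117 and 0.109), and r = -0.53 without them. ATG4B with the platelet score had r = 0.747 (permutation p = 0.00121, adjusted p = 0.0507) and rho = 0.793 (permutation p = 0.0006, adjusted p = 0.0261), and r = 0.642 without CR 1 and CR 6. SQSTM1 had r = 0.600 and rho = 0.622 with the monocyte score (permutation p = 0.0532 and 0.0341, adjusted p = 0.276 and 0.187), and r = 0.271 without CR 6 and CR 7. With the monocyte score as a covariate, ATG7 was at 0.17 and SQSTM1 at 0.17, both turned in sign. GABARAP was then at 0.51, with an unadjusted p of 0.0115 and an adjusted p of 0.616 (0.616 to 0.999 over its alternatives, limma). BECN1 hardly followed the monocyte score (r = 0.00648, permutation p = 0.982, and rho = 0.112, permutation p = 0.683, adjusted p = 0.990 and 0.854). Without CR 6 and CR 7 r was -0.32 (permutation p = 0.335), and the difference of BECN1 between diets was 0.31 with the covariate. With the erythroid score BECN1 had r = 0.427 and rho = 0.248 (permutation p = 0.0797 and 0.346, adjusted p = 0.287 and 0.649). Without CR 4 and CR 6 that r was 0.0997. CR 4 had the highest erythroid score of all arrays (1.82) and the highest BECN1 signal. With the platelet score r was 0.169. No correlation of BECN1 with the NK and cytotoxic score was computed. In control 4 and control 5 BECN1 (12.71 and 12.73) and that score (-0.78 and -1.06) were the lowest of the controls. The other controls had BECN1 from 12.96 to 13.25 and NK and cytotoxic scores from -0.42 to 0.19. In CR 7 BECN1 was the lowest of the CR animals (13.16) and that score the highest (0.51). CR 4, with the highest BECN1, had a score of 0.42. CR 5 had the lowest score of the CR animals (-0.12), with BECN1 at 13.24. Only the monocyte score was used as a covariate. The part of the NK and cytotoxic score in the difference of BECN1 between diets was not tested.

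**Figure D5:**
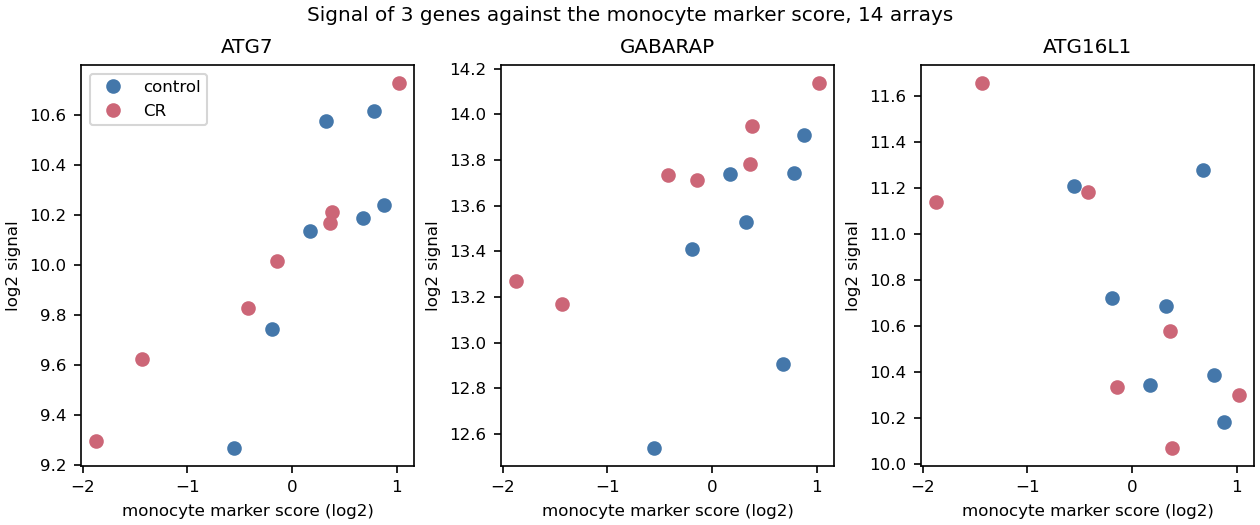
Log2 signal of ATG7, GABARAP and ATG16L1 against the monocyte marker score, 1 point per animal and colour by diet. ATG7 is higher at higher scores in both diets, and ATG16L1 is highest in CR 7, at a score of -1.43.

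A second list held 40 further genes of the pathway, among them other Beclin 1 partners, cargo receptors and genes of fusion with lysosomes, and 20 of them were tested. They split evenly, with 10 higher and 10 lower and a median difference of 0.0050, and 0 passed an adjusted p of 0.05 or an unadjusted p of 0.05 (limma). The 4 with the smallest p were CALCOCO2, WDR45, VMP1 and ZKSCAN3. CALCOCO2 (NDP52), a receptor for bacteria, differed by 0.35 ± 0.21 (SE), from 11.19 ± 0.48 (SD, n = 7) to 11.54 ± 0.30. WDR45, a PI3P reader related to WIPI2, differed by 0.43 ± 0.28 and VMP1, a scramblase of the endoplasmic reticulum, by -0.17 ± 0.13. ZKSCAN3, a repressor of autophagy genes, differed by 0.55 ± 0.44 at a dim signal of 6.29 in controls. PIK3C3, the lipid kinase that Beclin 1 scaffolds, was at 0.19 ± 0.18, and RAB7A, which directs fusion with lysosomes, at -0.21 ± 0.23. TFE3 and MITF, the relatives of TFEB, were at -0.053 ± 0.19 and -0.00395 ± 0.20.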

How the data were processed

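The authors deposited 1 linear intensity per probe set and array, made with MAS5 per the submitters' processing notes (version not given in the sources used here). The 2% trimmed mean of the deposited intensities was 500.04 on all 14 arrays, so a change in total RNA would not be visible. Intensities under 16 were set to 16 and log2 taken. After 99 control probe sets were left out, the brighter 50% were tested, with a lowest mean log2 of 6.45. CR minus control was fitted with limma 3.58.1 in R 4.3.3 (moderated variance with trend, no covariate, two-sided, Benjamini-Hochberg over 26383 probe sets, threshold 0.05). Permutation tests used 100000 resamples within diets, or all 3432 splits, in Python 3.11.15. The limma fit and the permuted correlations were tested on simulated data. The number of arrays limits precision. The labels call samples biological replicates and name no batch.

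The genes, lists and tests were chosen with earlier results of these data known. Per-animal values are given for the 6 genes with the smallest p and for 9 key genes fixed by name, and of the second list the 4 with the smallest p are named; PIK3C3, RAB7A, TFE3 and MITF were added after their values were seen. T cell markers were not scored, since 2 of 8 were tested, against a minimum of 3. The 3 scored erythroid markers were HBB, HBA and TRIM58. Gene symbols come from the platform annotation, and no genome positions or sequences were used here. Alternatives were another floor, no floor, 2 normalizations, 2 filters, each gene averaged over its probe sets, array weights, no moderation, the replicate number as a block, the monocyte score as a covariate, each array left out and, added later, CR 6 and CR 7 left out.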

Additional observations from a re-analysis of the deposited data

Results flagged for a closer look

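In 4 of 58 groups of 7 values (29 genes in 2 diets), 1 animal stood far from the others by Dixon's criterion, which sets the gap to the next value against the group's range at a 95% critical value. Chance gives about 1 in 20, or 2.9 groups. ULK2 was at 8.32 in control 1, with the next control at 9.15. RB1CC1 was at 10.72 in CR 3, with the next at 11.20. BECN1 was at 13.54 in CR 4, with the next at 13.25. MAP1LC3B was at 11.35 in control 5, with the next at 10.72.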

How the results depend on the processing

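Under all 26 alternatives 0 autophagy genes passed an adjusted p of 0.05 (0.616 at the lowest), and so did 0 probe sets and 0 genes of the second list. The median difference of the 29 genes ran from 0.06 (without CR 2) to 0.14 (without control 3) with 1 array left out, and was 0.034 with array weights, 0.040 with each gene averaged over its probe sets and 0.17 with the monocyte score as covariate. The count of genes at an unadjusted p under 0.05 was 0 with each gene averaged over its probe sets, 2 with the replicate block (BECN1 and NBR1), 2 with the monocyte score as covariate (BECN1 and GABARAP), 2 without CR 6 and CR 7 (BECN1 and WIPI2), and 0 to 1 with 1 array left out, 0 without CR 4. Without control 4 the 1 gene was NBR1 and not BECN1. Whether same-numbered animals form pairs was not tested: 4 of 7 pairs had a correlation of deviations over 0.1 (-0.11 to 0.18), and 1 control matched its own number best. Without the 2 arrays furthest out, 0 pairs of gene and marker score passed. The BECN1 ratio shift was 0.51 without CR 6 and CR 7 (exact permutation, adjusted p = 0.0707), and 0.47 to 0.58 without 1 array.

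Of the 29 differences, 16 kept their sign under all alternatives. Signs turned at these values, and beyond the construction of each alternative the cause was not tested. Quantile normalization gave ATG3 -0.062. Median centring gave ATG101 0.019, ATG2B 0.015 and SQSTM1 0.020. The mean of probe sets gave ATG5 -0.045, ATG16L1 -0.23, ATG4B -0.061 and ATG4C -0.025. Array weights gave UVRAG 0.012, ATG2B 0.033, ATG3 -0.019, ATG4B -0.014, SQSTM1 0.028 and TFEB -0.065. The monocyte covariate gave ULK2 0.0019, UVRAG 0.017, ATG7 0.17, ATG16L1 -0.20, ATG4C -0.047 and SQSTM1 0.17. Without CR 6 and CR 7, UVRAG was at 0.014, ATG7 at 0.080, ATG16L1 at -0.19, ATG4C at -0.038 and SQSTM1 at 0.21. With 1 array left out the ranges were -0.12 to 0.052 for ATG101, -0.086 to 0.18 for ATG16L1, -0.050 to 0.15 for ATG16L2, -0.13 to 0.083 for ATG2B, -0.079 to 0.075 for ATG3, -0.063 to 0.090 for ATG4B, -0.020 to 0.22 for ATG4C, -0.13 to 0.12 for SQSTM1, -0.043 to 0.25 for TFEB and -0.12 to 0.018 for UVRAG.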
